A study of Mus musculus with 12 samples.

Results

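Transcript levels in the dentate gyrus of Fst knockout mice (KO) were compared with those of wild-type mice (WT) by RNA sequencing. The comparison rests on 6 of the 12 libraries of the study, 3 of each genotype. They were chosen by the group named in the sample descriptions and by the table that holds them, and 14919 of the 52636 Ensembl genes of that table had enough counts to be tested. All mice were C57BL/6, and total RNA was taken from the dentate gyrus. The KO mice are labelled as lacking follistatin, with no vector or other treatment named. Neither the allele, nor the tissue in which the gene was deleted, nor the age is given in the sources used here. Each group held libraries named M1, F1 and M2. The 6 other libraries came from KO mice given an AAV9 vector for GFP (GFP vector) and from mice labelled overexpressing, given an AAV9 vector for Fst (Fst vector). They were used only for values set beside those of KO and WT.

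Follistatin is a secreted glycoprotein that binds activins, and more weakly some bone morphogenetic proteins (BMPs), and keeps them from their receptors. Activins bind a type II receptor, which activates a type I receptor, which phosphorylates SMAD2 and SMAD3. These join SMAD4 and enter the nucleus to regulate transcription. BMPs use the same scheme with SMAD1, SMAD5 and SMAD9. The dentate gyrus is the entry station of the hippocampus. Its granule cells receive the perforant path from the entorhinal cortex and contact CA3 through mossy fibres, and its subgranular zone makes new granule cells in adult rodents. In rodents, activin made by hippocampal neurons rises with neuronal activity.

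Sequencing depth was 9310396 to 11331337 counts per library, and 21503 to 22235 genes had a count. The floor used here, 3 counts, equalled 0.265 to 0.322 CPM, where CPM are counts scaled to a common total of 1000000. Titles and descriptions gave different sexes for 4 of the libraries (F1 and M2 of each group). Both F1 libraries held 1520 to 1785 CPM of Xist, the RNA that coats the inactive X chromosome, and the others 0.265 to 0.525 CPM. Ddx3y, a Y-linked gene, stood at 58.7 to 62.7 CPM in the 4 M libraries and had 0 counts in both F1 libraries. The sexes in the titles were therefore used, which gives 2 male libraries and 1 female library in each group. The share of mitochondrial rRNA was 0.575 to 0.658% in KO M2 and WT F1, against 0.00981 to 0.0202% in the 4 others. Where leaving out KO M2 and WT F1 turned the balance of positive and negative changes in a group of 10 or more tested genes, the counts without them are given too. This leaves KO M1 and KO F1 against WT M1 and WT M2, so that only KO then holds a female library. Shifts in these counts can thus not be told apart as those of rRNA share, of sex or of having 2 libraries a group. Whether a library is 1 mouse or a pool of mice is not clear from the labels, and p-values cover the spread between libraries, which may be technical. RNA of granule cells was present: Prox1, the transcription factor that marks them, stood at 407 to 457 CPM in the 6 libraries. This does not measure how much neighbouring tissue they held, whose markers are given below.

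Fst itself (ENSMUSG00000021765, minus strand of chromosome 13, 114452290 to 114458951, GRCm38) had 2 counts in KO M1, 4 in KO F1 and 2 in KO M2. The WT libraries had 34, 33 and 51 counts. The groups did not overlap, and the gene was scarce in WT too, at 3.87 ± 0.547 CPM (SD, n = 3). Relative to depth, WT held 13.93 times as many Fst reads as KO, with an exact 95% interval of 6.841 to 33.01 for counting error, and KO kept 7.181% of the WT level. The log2 change was -3.71 ± 0.42 (SE), with adjusted p = 1.13e-05 by edgeR's quasi-likelihood test, and it passed in each of the 20 alternatives tried.

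Beyond Fst, few genes passed the test across all genes. With Benjamini-Hochberg adjustment, 4 of 14919 genes passed at 0.05, which is 0.0268% of those tested. Of these, 1 was higher in KO (0.0067%) and 3 were lower (0.0201%). Without adjustment, 889 genes (5.96%) had p under 0.05, of which 440 (2.95%) were higher in KO and 449 (3.01%) lower. In 1644 genes (11.0%) the CPM of the KO and WT libraries did not overlap, with KO above WT in 594 (3.98%) and below in 1050 (7.04%). CPM here and below are scaled by library totals, while the fits use TMM, and the part of scaling in this excess below WT was not tested. Scaled by library totals in place of TMM, 305 genes were higher and 581 lower at unadjusted p under 0.05, so that the higher share went from 49.5 to 34.4%. Without KO M2 and WT F1, 615 genes were higher and 532 lower at unadjusted p under 0.05, of 14964 tested. Without both F1 libraries there were 569 and 514 of 15081. Counts of list members given below are to be read against the shares over all genes in the same fit, which are given in this paragraph. The lists were chosen with earlier results of these data known, and some hold genes called here. Their counts therefore describe the lists and are no independent evidence.

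**Figure D1:**
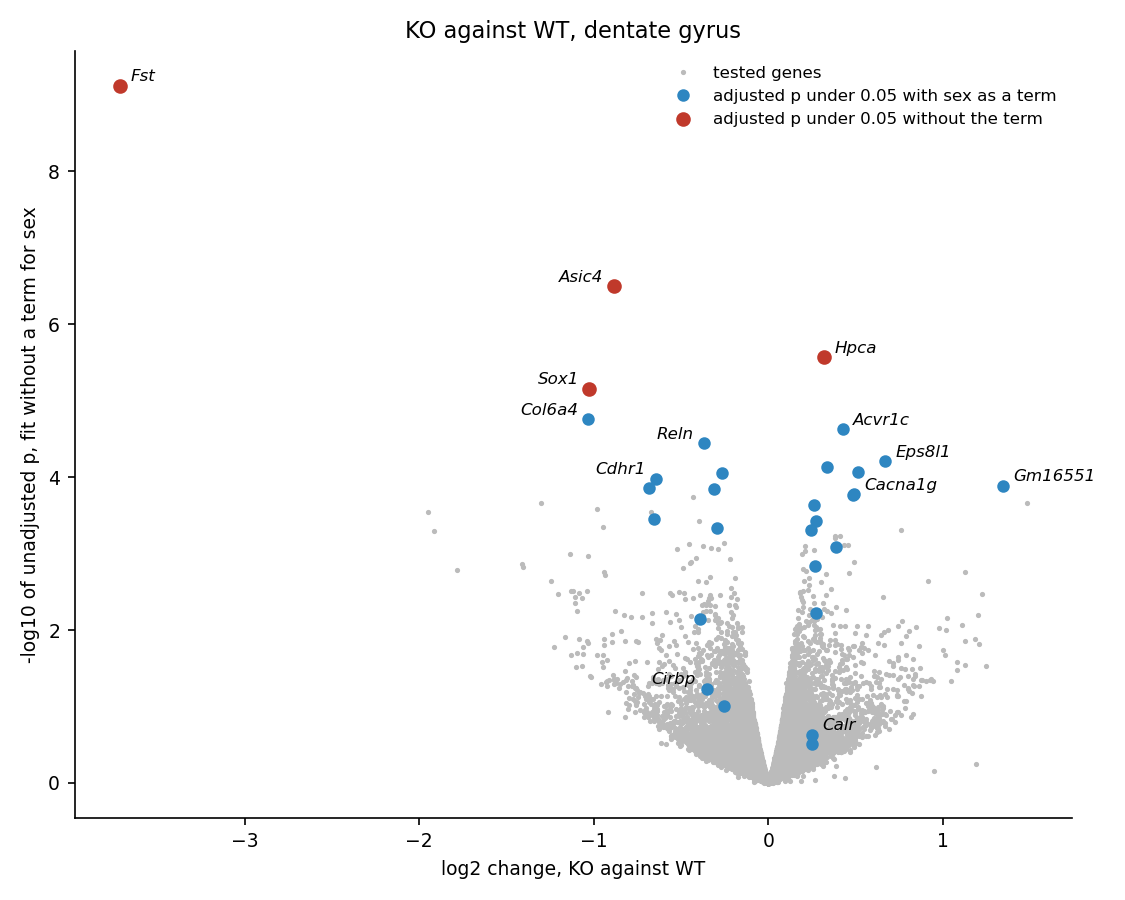
Each point is 1 of 14919 tested genes, placed by its log2 change in KO against WT and by the negative log10 of its unadjusted p without a term for sex. Red points passed the adjusted threshold of 0.05 without a term for sex and blue points passed only with one. Fst lies far to the left at -3.71, and the other coloured genes lie between Col6a4 at -1.03 and Gm16551 at 1.34.

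Asic4 fell in KO. It encodes a subunit related to the acid-sensing ion channels, one that does not itself open in response to acid (ENSMUSG00000033007, plus strand of chromosome 1, 75450436 to 75474343). Its level was 17.1, 13.1 and 18.3 CPM in KO M1, F1 and M2, and 33.1, 24.4 and 33.1 CPM in WT M1, F1 and M2. Every KO library lay below every WT library, and both F1 libraries were the lowest of their group. The log2 change was -0.89 ± 0.13, with adjusted p = 0.00236 by edgeR's quasi-likelihood test. It passed in 19 of 20 alternatives, the exception being the fit that shared 1 spread with the vector libraries. The other tested channels of the family did not pass: the log2 changes were 0.18 ± 0.10 for Asic1, -0.02 ± 0.08 for Asic2, the main brain subunits, and 0.43 ± 0.39 for Asic3.

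Sox1 fell as well. It encodes a SOXB1 transcription factor of neural progenitors, which in the adult dentate gyrus marks activated radial stem cells (ENSMUSG00000096014, plus strand of chromosome 8, 12395295 to 12400126). Its level was 5.16, 5.57 and 4.47 CPM in the KO libraries and 13.015, 8.26 and 10.1 CPM in those of WT, in the order M1, F1, M2. The groups did not overlap. The log2 change was -1.03 ± 0.19, with adjusted p = 0.0259 by edgeR's quasi-likelihood test. It passed in 12 of 20 alternatives. Leaving out any single library but WT F1 took the adjusted p from edgeR to between 0.0676 and 0.22, and Sox1 did not pass either with limma-voom, with a spread shared with the vector libraries or against a minimum change.

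The noncoding gene Sox1ot, whose transcripts run across the Sox1 locus on the same strand, was lower in KO too. It stood at 6.44, 8.78 and 9.55 CPM in KO and at 14.3, 12.98 and 13.06 CPM in WT. These values do not overlap either, and the log2 change was -0.68 ± 0.16, with an adjusted p from edgeR of 0.144 without and 0.0496 with a term for sex. Sox1 lies within an intron of Sox1ot: none of the 11 annotated Sox1ot exons overlaps it, and the nearest lies 9265 bases away. Counts over annotated exons thus separate the genes, although unspliced Sox1ot reads could fall within Sox1.

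Hpca rose. It encodes hippocalcin, a neuronal calcium sensor that moves to the membrane when calcium rises and takes part in the slow afterhyperpolarisation of hippocampal neurons (ENSMUSG00000028785, minus strand of chromosome 4, 129111570 to 129122036). Its level was 1247, 1335 and 1229.7 CPM in KO and 1050.1, 1035 and 1004 CPM in WT. The change was small in size but the groups lay well apart. The log2 change was 0.32 ± 0.06, with adjusted p = 0.0134 by edgeR's quasi-likelihood test. It passed in 16 of 20 alternatives. Hpca did not pass without WT M1 (adjusted p from edgeR 0.0565), without WT M2 (0.304), with the shared spread or against a minimum change of 1.2 fold. Of the 11 tested neuronal calcium sensor genes, Hpca alone had unadjusted p under 0.05; 5 had a positive and 6 a negative change, with a median of -0.01.

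**Figure D2:**
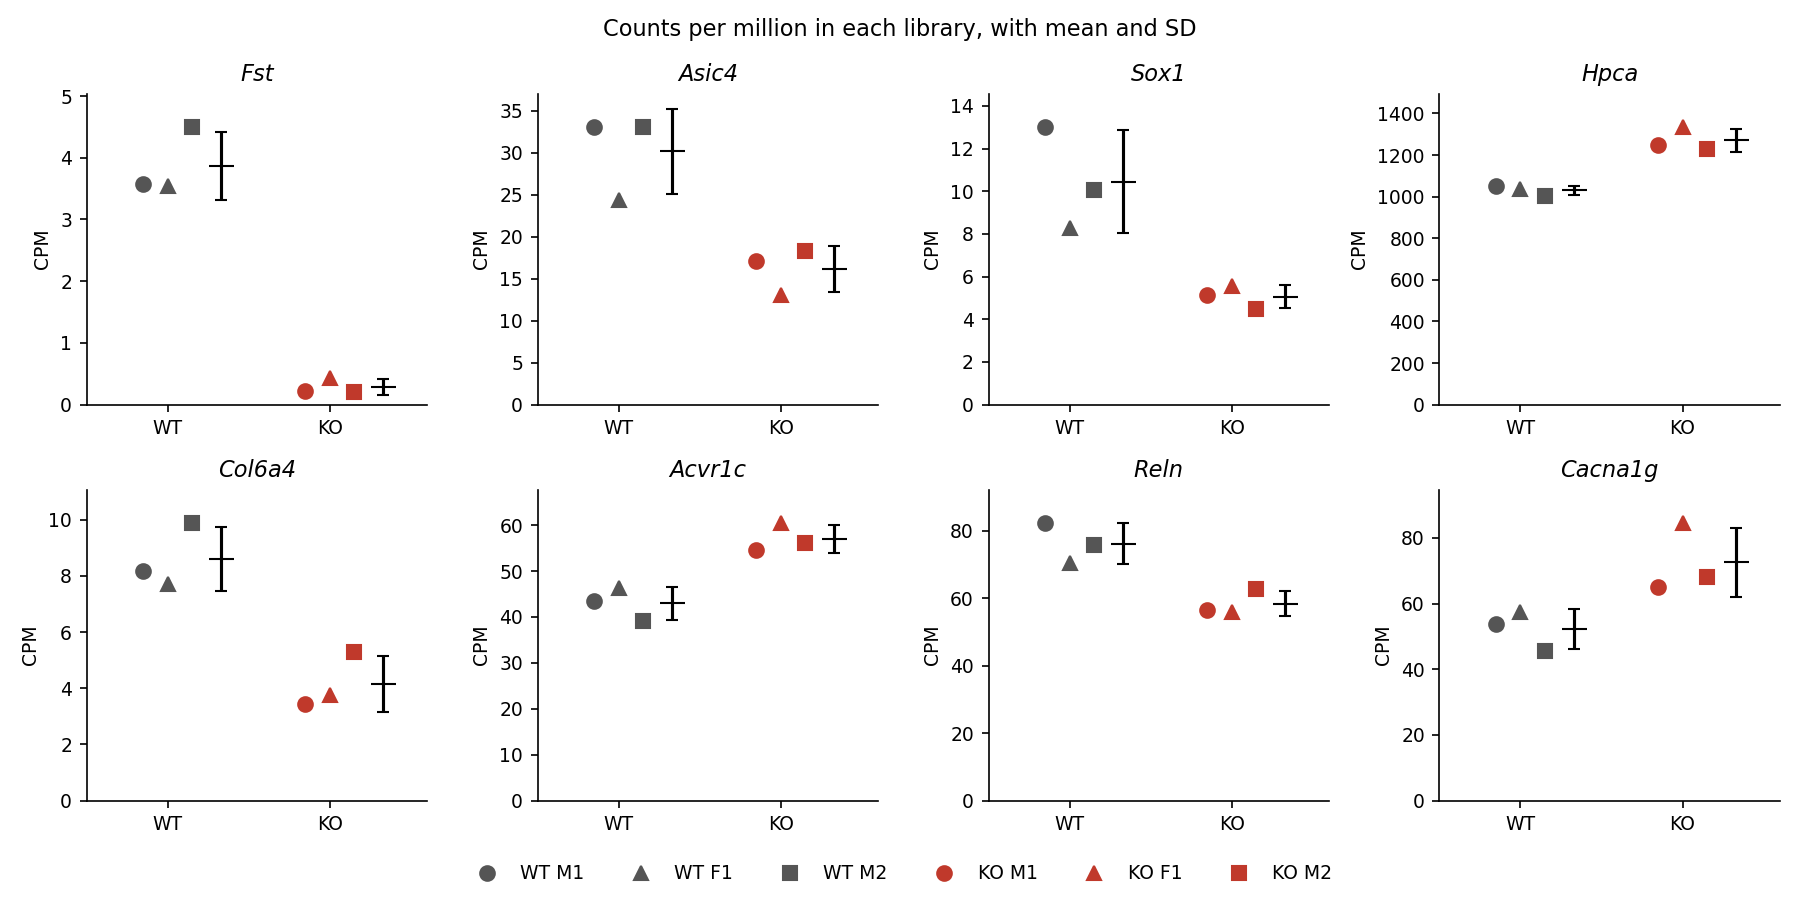
Each panel gives the CPM of 1 gene in the 3 WT and the 3 KO libraries (circles M1, triangles F1, squares M2), with the mean and SD of each group beside them. The 8 genes shown were picked from those called with a term for sex, and in them the KO and WT libraries do not overlap. Among all tested genes 11.0% do not overlap.

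With the sex of the titles as a term in the fit, 30 genes passed the adjusted threshold, which is 0.201% of those tested. Of them 16 were higher in KO (0.107%) and 14 lower (0.0938%). The term compares KO with WT within the males and within the females. In these 30 genes the 2 male libraries of each group did not overlap and the F1 pair differed the same way. The fit favours such genes, so this follows largely from how they were chosen. Over all 6 libraries 24 of the 30 did not overlap. The set includes the 4 genes above, and the adjusted p of the 26 others without the term ran from 0.0513 to 0.95. With the libraries of the same name as blocks, 21 of the 30 passed. The set depended on single libraries: leaving out 1 male library at a time left 3 to 50 genes past the threshold, with the low end without KO M1.

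The 14 genes that fell with this term included Col6a4 and Reln. Col6a4, an alpha chain of collagen VI, stood at 3.44, 3.75 and 5.28 CPM in KO and at 8.19, 7.72 and 9.88 CPM in WT. The log2 change of Col6a4 was -1.03 ± 0.20, with an adjusted p from edgeR of 0.0513 without and 0.016 with the term. Reln encodes reelin, the secreted protein that guides granule cell position and is made by Cajal-Retzius cells and interneurons. It stood at 56.4, 56.0 and 62.6 CPM in KO and at 82.3, 70.3 and 75.8 CPM in WT. These Reln values do not overlap, and the log2 change was -0.37 ± 0.08 (adjusted p from edgeR 0.0773 without and 0.016 with the term). Col25a1, a transmembrane collagen of neurons, changed by -0.31 ± 0.07, and Cdhr1, a cadherin-related gene known from photoreceptors and olfactory mitral cells, by -0.64 ± 0.14. Tsc22d3, which encodes the glucocorticoid-induced leucine zipper, fell with the term, at 39.3, 28.4 and 34.1 CPM in KO against 50.2, 35.8 and 48.8 CPM in WT. Its libraries overlap across the groups, since WT F1 lies within the KO range, and so do those of Cirbp, a cold-inducible RNA-binding protein gene, and of Marcksl1, an actin-linked gene of growing neurons. The remaining genes that fell were Rtl3, Bhlhe40, a circadian repressor, and Selenop, a selenium carrier made by astrocytes, besides Fst, Sox1, Asic4 and Sox1ot.

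The 16 genes that rose with the term included Acvr1c and Cacna1g. Acvr1c encodes ALK7, a type I receptor for nodal, several GDFs and activin B. Acvr1c stood at 54.6, 60.5 and 56.1 CPM in KO and at 43.6, 46.2 and 39.2 CPM in WT. Each KO library lay above each WT library, and the log2 change was 0.43 ± 0.09, with an adjusted p from edgeR of 0.0585 without and 0.00959 with the term. Cacna1g encodes the low-voltage T-type calcium channel Cav3.1, and stood at 65.1, 84.6 and 68.0 CPM in KO against 53.8, 57.4 and 45.5 CPM in WT. Its log2 change was 0.49 ± 0.10, and the adjusted p from edgeR with the term was 0.000747. Rimbp2, a scaffold of the presynaptic release site, changed by 0.28 ± 0.07 (adjusted p from edgeR 0.00959 with the term). Adam11 and Plk5 are neuronal genes, the latter enriched in granule cells, and changed by 0.24 ± 0.06 and 0.26 ± 0.06. Fbxo32, the ubiquitin ligase atrogin-1, changed by 0.48 ± 0.11, and Fosl2, an AP-1 factor, by 0.34 ± 0.07. The others that rose were Hpca, Ypel4, Slc26a4, an anion exchanger, Eps8l1, Gm16551, Calr, Pdia6, Rasl10a and Ndufb1-ps. Exons of Rasl10a and Ndufb1-ps overlap those of other expressed genes, and since the handling of strand is not given, the reads of these cannot be told apart.

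Calr and Pdia6, chaperones of the endoplasmic reticulum, show how the F1 libraries spread the groups. Calr stood at 390, 483 and 391 CPM in KO and at 318, 434 and 322 CPM in WT. Pdia6 stood at 144, 175 and 144 CPM in KO and at 112, 167 and 115 CPM in WT. For both genes the female library of a group was far above its males, so that the groups overlap although KO exceeded WT within each sex. Without KO M2 and WT F1, the libraries of higher rRNA, the log2 change was 0.47 ± 0.08 for Calr and 0.51 ± 0.09 for Pdia6 (adjusted p from edgeR 0.0079 and 0.00395). That fit has a female library in KO only and no term for sex. Without both F1 libraries the changes were smaller, at 0.31 ± 0.05 and 0.36 ± 0.06, and with the term for sex they were 0.26 ± 0.05 and 0.265 ± 0.058. The related chaperone genes Hspa5 and Hsp90b1, looked at because of these values, passed too without KO M2 and WT F1, at 0.42 ± 0.07 and 0.40 ± 0.08 (adjusted p from edgeR 0.00436 and 0.0197). The same imbalance of sex holds for them. With the term for sex on all 6 libraries they did not (adjusted p from edgeR 0.904 and 0.0625), and Hspa5 was higher in WT F1, at 348 CPM, than in any KO library.

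The activin, BMP and TGF-beta pathway was followed by the roles of its members. Of 103 listed genes 75 were tested; 31 had a positive and 44 a negative change, with a median of -0.02 against -0.00085 for all genes. Without KO M2 and WT F1 the balance turned to 40 positive and 35 negative changes, with a median of 0.01. At unadjusted p under 0.05 with all libraries, 4 were higher in KO and 4 lower, with Fst itself among the lower. Over all genes the shares were 2.95% and 3.01%. On all 6 libraries with no term Fst alone of them passed after adjustment. Acvr1c passed too in several alternatives without a term for sex, among them DESeq2 (adjusted p 0.0413) and edgeR without KO M2 and WT F1 (adjusted p 0.0314).

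Of the activin, inhibin and GDF ligands, 5 of 13 were tested and none had unadjusted p under 0.05. Inhba, the subunit of activin A, stood at 12.9, 13.5 and 11.8 CPM in KO and at 12.7, 9.76 and 11.6 CPM in WT. The groups overlap, and the log2 change was 0.18 ± 0.14. Inhbb, the subunit of activin B, changed by 0.08 ± 0.27, and Inha, whose product turns activin dimers into inhibin, by 0.07 ± 0.11. Per kilobase of exon in WT, Inha stood at 38.1 ± 2.9 CPM (SD, n = 3), Inhba at 1.78 ± 0.23 and Inhbb at 0.694 ± 0.058, so the inhibin subunit was the most abundant of the 3 in RNA per length.

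Myostatin (Mstn), a muscle growth inhibitor that follistatin binds, lay below the filter on low counts. It had 0, 0 and 1 counts in KO M1, F1 and M2 and 3, 7 and 5 in WT. Summed, WT held 14.16 times as many Mstn reads relative to depth, with an exact 95% interval of 2.179 to 596.2. Without the filter the adjusted p of Mstn from edgeR was 0.616, so at this depth the difference did not pass. Gdf6, a BMP-type ligand, had 1, 5 and 3 counts in KO and 0 in each WT library, and its adjusted p from edgeR without the filter was 0.657. Nodal had 2, 5 and 11 counts in KO and 2, 3 and 1 in WT. The ratio of WT to KO for Nodal was 0.3147, with an exact 95% interval of 0.1023 to 0.8276 for counting error. Its adjusted p from edgeR without the filter was 0.841. Among BMP ligands 4 of 14 were tested, and Bmp3 had unadjusted p under 0.05, at 1.61, 1.18 and 2.74 CPM in KO and 0.525, 1.07 and 1.15 CPM in WT. Of the TGF-beta ligands and their latent binding proteins, 6 of 7 were tested. Tgfb2, a ligand of the TGF-beta branch, stood at 62.8, 60.8 and 61.6 CPM in KO against 55.3, 53.1 and 55.0 CPM in WT. These did not overlap, and the log2 change of 0.20 ± 0.07 had adjusted p = 0.736 by edgeR's quasi-likelihood test.

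Of 11 tested type I and type II receptor genes, 2 had a positive and 9 a negative change. This split turned to 5 and 6 without KO M2 and WT F1 and to 6 and 5 without both F1 libraries. With all 6 libraries Acvr1c was the one with unadjusted p under 0.05. Acvr1b, which encodes the activin receptor ALK4, stood at 173, 173 and 166 CPM in KO and at 184, 167 and 186 CPM in WT, a log2 change of -0.05 ± 0.06. Changes in the type II receptors were -0.03 ± 0.06 for Acvr2a, whose exons overlap those of Orc4, and -0.11 ± 0.23 for Acvr2b. Per kilobase, WT held 40.5 ± 2.4 CPM of Acvr1b and 4.63 ± 0.38 CPM of Acvr1c, against 6.14 ± 0.33 CPM of Acvr1c in KO (SD, n = 3). Of 7 tested co-receptors, Rgma, a BMP co-receptor of the repulsive guidance family, had unadjusted p under 0.05 with a change of -0.22 ± 0.11.

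No antagonist gene other than Fst passed the test. Of 17 tested antagonists and follistatin relatives, 10 had a positive and 7 a negative change, and Fst was the one with unadjusted p under 0.05. The follistatin relative Fstl1 stood at 24.1, 28.5 and 30.4 CPM in KO and at 23.3, 23.2 and 25.9 CPM in WT. Its groups overlap, and its log2 change was 0.21 ± 0.10. Fstl3, which binds activins as follistatin does, lay below the filter with 7, 6 and 4 counts in KO and 14, 8 and 7 in WT. The ratio of WT to KO for Fstl3 was 1.611, with an exact 95% interval of 0.8558 to 3.124.

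None of the 13 tested SMAD proteins and cofactors had unadjusted p under 0.05. Changes were -0.02 ± 0.12 for Smad2, -0.02 ± 0.05 for Smad3, -0.12 ± 0.08 for Smad4 and 0.11 ± 0.14 for the inhibitory Smad7. Per kilobase in WT, Smad3 stood at 40.3 ± 1.1 CPM and Smad2 at 2.11 ± 0.3 CPM. Of 16 tested SMAD target genes, 5 had a positive and 11 a negative change. Pmepa1, a TGF-beta target that feeds back on receptor-activated SMADs, stood at 38.1, 30.7 and 33.4 CPM in KO and at 27.3, 28.4 and 26.6 CPM in WT. These did not overlap, with a log2 change of 0.33 ± 0.10 and adjusted p = 0.41 by edgeR's quasi-likelihood test. Id4 and Id2, BMP targets that hold progenitors back from differentiation, had changes of -0.22 ± 0.07 and -0.19 ± 0.09, each with unadjusted p under 0.05.

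**Figure D3:**
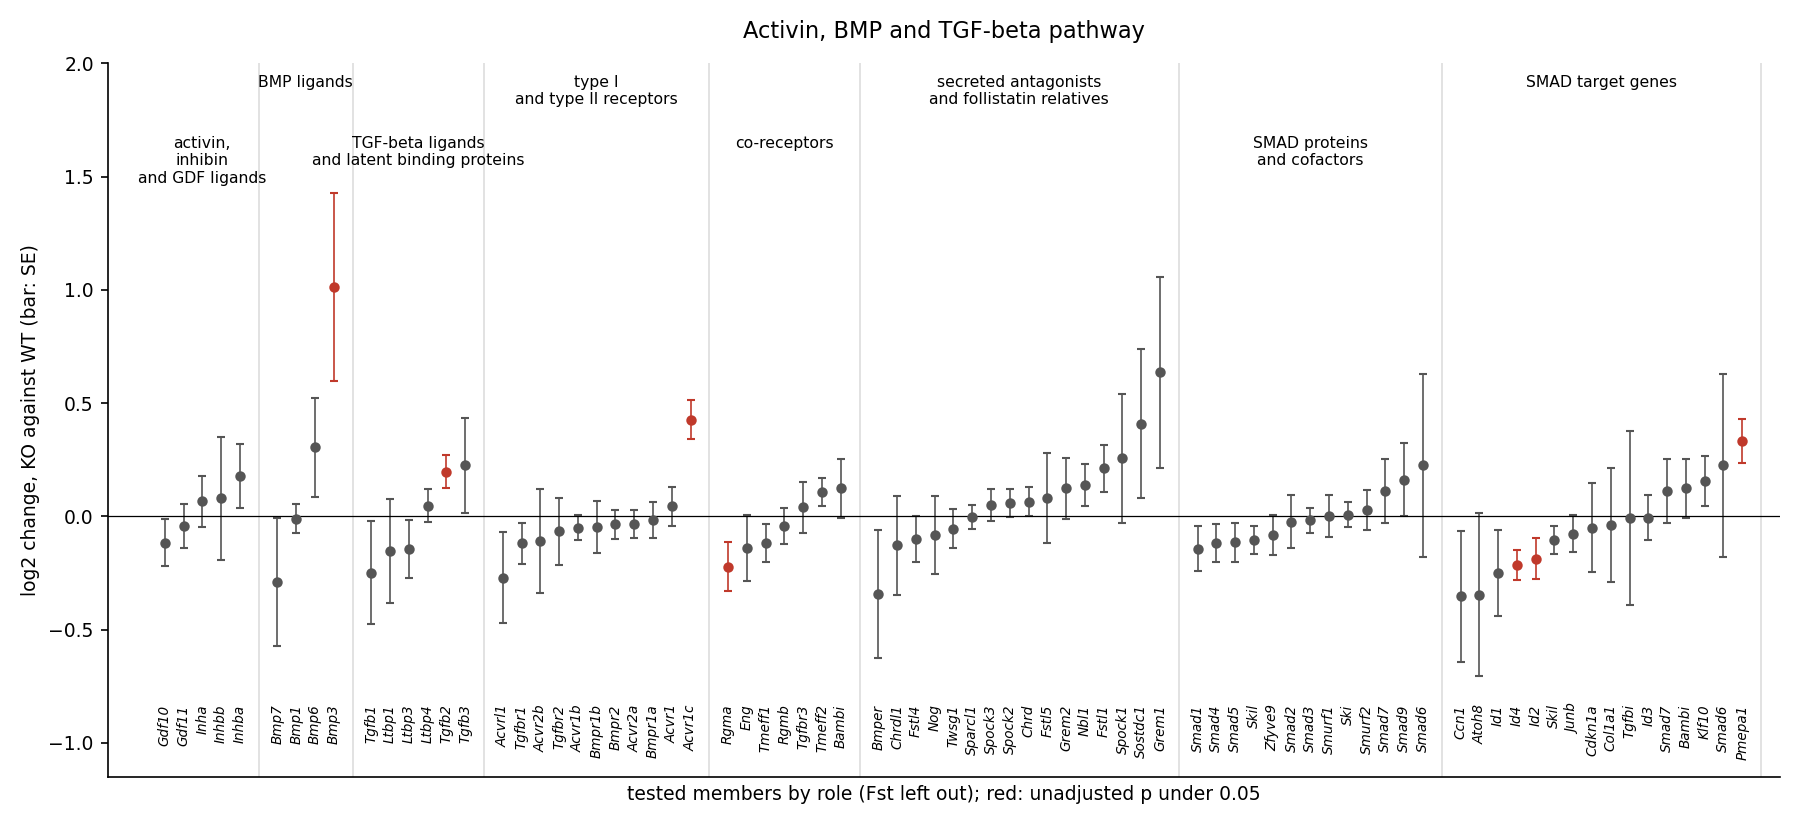
Log2 changes in KO against WT with their SE are shown for the tested members of the activin, BMP and TGF-beta pathway, grouped by role, with Fst left out. Red points have unadjusted p under 0.05. The red points above 0 are Bmp3 (1.01), Acvr1c (0.43), Pmepa1 (0.33) and Tgfb2 (0.20), and those below are Rgma, Id4 and Id2.

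Among markers of adult neurogenesis, Sox1 alone passed the adjusted threshold without a term for sex, and with the term Marcksl1 (lower) and Plk5 (higher) passed as well. In the newborn neuron list, 13 of 19 tested genes had a negative change and the median was -0.04. At unadjusted p under 0.05, 4 were lower and 0 higher, against 3.01% and 2.95% of all genes. Dcx, the microtubule protein of migrating neuroblasts, stood at 16.1, 15.5 and 19.0 CPM in KO and at 23.7, 23.9 and 20.7 CPM in WT. Its groups did not overlap, and its log2 change of -0.41 ± 0.11 had adjusted p = 0.326 by edgeR's quasi-likelihood test. Igfbpl1, a marker of neuroblasts, Draxin, a guidance factor, and Sema3c, a semaphorin, changed by -1.14 ± 0.31, -1.41 ± 0.40 and -0.43 ± 0.14. Igfbpl1 and Draxin were scarce, at 3.73 ± 0.708 and 2.38 ± 0.113 CPM in WT (SD, n = 3). By contrast Neurod1, a factor of early granule neurons, changed by -0.04 ± 0.08. Without KO M2 and WT F1, 6 newborn neuron genes were lower and 0 higher at unadjusted p under 0.05.

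In the proliferation list 11 of 14 tested genes had a negative change, with a median of -0.12. Top2a, the topoisomerase of dividing cells, stood at 1.29, 1.18 and 0.711 CPM in KO and at 2.20, 2.04 and 2.65 CPM in WT. Top2a and the chromatin gene Hmgb2 (-0.66 ± 0.23) were the 2 with unadjusted p under 0.05. The list had 1 such gene, which was lower, without KO M2 and WT F1. Mki67, the marker protein of cycling cells, changed by -0.19 ± 0.16, with overlapping groups. Summed over the list, KO held 218.5 to 228.8 CPM and WT 239.3 to 243.2 CPM.

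Of 17 stem cell genes, 8 had a positive and 9 a negative change, against 10 and 7 without KO M2 and WT F1. Sox1, Id4 and Vim, an intermediate filament gene (-0.27 ± 0.11), were lower at unadjusted p under 0.05, and Gfap, the filament gene shared with astrocytes, was higher (0.16 ± 0.06). Sox2, a SOXB1 factor related to Sox1, changed by 0.11 ± 0.09, and Nes, which encodes nestin, by 0.23 ± 0.18. Fewer cells of a type and less RNA per cell cannot be told apart in bulk tissue. Of 18 mature granule cell genes, Plk5, Lct (0.21 ± 0.08) and C1ql2, a synaptic organiser of mossy fibres (0.16 ± 0.07), were higher at unadjusted p under 0.05, and Calb1, which encodes the calcium buffer calbindin, was lower (-0.15 ± 0.05). These genes had 8 positive and 10 negative changes, against 11 and 7 without KO M2 and WT F1. Their summed level was 3095 to 3351 CPM in KO and 3081 to 3298 CPM in WT.

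Cajal-Retzius cells are early-born neurons that persist along the hippocampal fissure, at the outer edge of the dentate molecular layer. Of 10 tested markers, 8 had a negative change, with a median of -0.24. Among the 10, 4 were lower and 0 higher at unadjusted p under 0.05, against 3.01% and 2.95% of all genes. The 4 lower were Reln, Ndnf, a secreted neurotrophic factor, Trp73, which encodes the transcription factor p73, and Cacna2d2, a calcium channel subunit. Ndnf stood at 19.98, 18.8 and 20.8 CPM in KO and at 23.3, 28.6 and 24.5 CPM in WT, and Trp73 at 5.16, 6.96 and 6.09 against 9.45, 7.72 and 9.35 CPM. Neither gene overlapped between the groups; the log2 changes were -0.34 ± 0.11 and -0.53 ± 0.18. The list summed to 203.8 to 237.6 CPM in KO and 240.8 to 265.0 CPM in WT. Without KO M2 and WT F1, 4 of the 10 markers were lower at unadjusted p under 0.05. Cacna2d2 was not one of them there (-0.25, adjusted p from edgeR 0.765). Reln, Ndnf and Cacna2d2 are also made by interneurons. Of 18 interneuron genes, Crhbp, which binds corticotropin-releasing hormone (0.85 ± 0.30), Npy, which encodes neuropeptide Y (0.29 ± 0.11), and the serotonin receptor gene Htr3a (0.53 ± 0.21) were higher at unadjusted p under 0.05. Gad2, an enzyme of GABA synthesis (-0.21 ± 0.08), and the transcription factor Lhx6 (-0.40 ± 0.16) were lower. Without KO M2 and WT F1, 1 interneuron gene was higher and 3 were lower at unadjusted p under 0.05.

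Downstream of reelin, no tested gene had unadjusted p under 0.05: Vldlr and Lrp8, its receptors, changed by -0.08 ± 0.07 and 0.04 ± 0.06, and their adaptor Dab1 by -0.05 ± 0.06. Of 23 tested collagen and matrix genes, Col6a4, Col25a1 and Hapln1, a link protein of perineuronal nets (-0.31 ± 0.11), were lower at unadjusted p under 0.05. Col4a1, a basement membrane collagen, was higher (0.23 ± 0.09).

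Of 33 potassium channel genes 23 had a positive change, with a median of 0.06, and 19 without KO M2 and WT F1. Kcnj9, a subunit of G protein-gated channels, Kcnq3, of the M current, Kcnc1 and Kcnd3 were higher at unadjusted p under 0.05, by 0.12 to 0.15. Kcnt1, a sodium-activated channel, was lower, at 19.98, 17.9 and 20.6 CPM in KO against 26.3, 26.2 and 23.3 CPM in WT, a change of -0.35 ± 0.11. Among calcium channel genes, Cacna1g, Cacnb4, a beta subunit (0.15 ± 0.06), and Cacna1c, the pore of an L-type channel (0.15 ± 0.07), were higher at unadjusted p under 0.05. Cacna2d2 and Cacna2d3, accessory subunits, were lower, with changes of -0.33 ± 0.13 and -0.16 ± 0.08. The other T-type channel genes, Cacna1h and Cacna1i, changed by 0.04 ± 0.06 and 0.14 ± 0.09.

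Of 21 genes for postsynaptic scaffolds and signalling, 19 had a positive change, with a median of 0.07. At unadjusted p under 0.05, 5 were higher and 0 lower, against 2.95% and 3.01% of all genes. The 5 were Nrgn, which encodes the calmodulin buffer neurogranin, the scaffolds Homer3, Shank3 and Shank2, and Camk2a, the kinase of synaptic plasticity. Nrgn stood at 2155, 2306 and 2067 CPM in KO and at 2010, 1862 and 1897 CPM in WT, a change of 0.20 ± 0.05 without overlap. Without both F1 libraries 2 of the list were higher at unadjusted p under 0.05, and without KO M2 and WT F1 there were 7. Of 27 vesicle release genes, 21 had a positive change; Stx1a and Bsn were higher at unadjusted p under 0.05 and Rims3 lower (-0.40 ± 0.12). Glutamate receptor genes had 11 positive and 11 negative changes, against 9 and 13 without KO M2 and WT F1, and 0 at unadjusted p under 0.05 in 22 genes. Of 14 GABA receptor genes, Gabra2 was higher (0.12 ± 0.06).

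Glucocorticoid-responsive genes leaned lower. Of 16 tested, 15 had a negative change, with a median of -0.15, and 4 had unadjusted p under 0.05: Map3k6, Plin4, a lipid droplet protein gene, Per1, a clock gene, and Tsc22d3. Map3k6, a stress kinase gene, stood at 3.54, 2.03 and 3.15 CPM in KO and at 6.09, 4.83 and 6.09 CPM in WT. These did not overlap, and the log2 change was -0.94 ± 0.24, with an adjusted p from edgeR of 0.235 without and 0.0838 with a term for sex. Per1 stood at 107 to 109 CPM in KO and 121 to 129 CPM in WT. Without KO M2 and WT F1, 8 genes of the list were lower at unadjusted p under 0.05 and 0 higher. In that fit 532 of all 14964 tested genes were lower and 615 higher.

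Heat shock genes leaned higher. Of 14 tested, 12 had a positive change, with a median of 0.14, and 3 had unadjusted p under 0.05: the chaperones Hspa8 (0.20 ± 0.06), Hspa1b (0.41 ± 0.14) and Hspe1 (0.23 ± 0.08). Summed, the list ran from 3884 to 4463 CPM in KO and from 3617 to 4574 CPM in WT, where WT F1 was the highest of the 6 libraries. Of 20 immediate-early genes, Fosl2 and Jun (0.14 ± 0.06) were higher at unadjusted p under 0.05 and Sik1, a kinase gene induced by cAMP, was lower. Sik1 stood at 9.45, 9.10 and 10.2 CPM in KO and at 12.6, 14.4 and 14.7 CPM in WT, a change of -0.52 ± 0.14 without overlap. Arc, which encodes a synaptic protein induced by activity, changed by 0.19 ± 0.10.

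Of 33 nuclear genes for oxidative phosphorylation, 27 had a positive change, with a median of 0.09. Among the 33, 7 were higher and 0 lower at unadjusted p under 0.05, against 2.95% and 3.01% of all genes. Cox7c, a subunit of cytochrome c oxidase, stood at 145, 153 and 156 CPM in KO and at 134, 125 and 138 CPM in WT, a change of 0.21 ± 0.06. In 10 of the 33, KO lay above WT without overlap, against 3.98% of all tested genes. The 33 include Ndufb1-ps, whose exons overlap those of the expressed gene Cpsf2, so that their reads cannot be told apart. Without KO M2 and WT F1, 3 were higher at unadjusted p under 0.05. Of 12 mitochondrially encoded genes 6 had a positive and 6 a negative change, against 3 and 9 without KO M2 and WT F1, and 0 had unadjusted p under 0.05 with all libraries.

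Of 10 antigen presentation genes 9 had a negative change, with a median of -0.18, and the MHC class I genes H2-D1, H2-K1 and H2-Q4 were lower at unadjusted p under 0.05. H2-D1 stood at 23.1, 26.1 and 24.4 CPM in KO and at 29.5, 33.9 and 34.5 CPM in WT, a change of -0.40 ± 0.10. These genes are near-identical copies, so how reads were shared among them is uncertain, and without KO M2 and WT F1 1 of the list was lower. Of 14 interferon response genes Oasl2 was lower, at 1.504, 1.93 and 1.73 CPM in KO and 3.46, 3.54 and 3.71 CPM in WT. Interferon response genes had 5 positive and 9 negative changes, but 7 and 6 without KO M2 and WT F1. Of 12 microglia and macrophage markers 0 had unadjusted p under 0.05; 4 changes were positive and 8 negative, which turned to 8 and 4 without KO M2 and WT F1.

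Of 21 tested Notch and Wnt pathway genes, 5 were lower and 1 higher at unadjusted p under 0.05. The lower genes were the Notch ligands Dll1 (-0.56 ± 0.18), Dll3 (-1.08 ± 0.34) and Jag2 (-0.17 ± 0.08), the Wnt inhibitor Sfrp1 (-0.90 ± 0.34) and the ligand Wnt7a (-0.38 ± 0.16). With KO M2 and WT F1 left out, 3 were lower. Over the whole list the balance of 10 positive and 11 negative changes turned to 11 and 10 there. The higher gene was Dkk3, a secreted glycoprotein of pyramidal neurons, at 85.7, 95.8 and 110 CPM in KO and 78.8, 77.7 and 62.7 CPM in WT, a change of 0.43 ± 0.10.

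Markers of neighbouring tissue varied between libraries in both groups. Markers of CA3 and CA2 had a median change of 0.19, with Bok and Coch higher and Rgs14 lower at unadjusted p under 0.05, and their summed level was 1705 to 1877 CPM in KO and 1642 to 1744 CPM in WT. Without KO M2 and WT F1, their median was 0.07, with 1 higher and 2 lower at unadjusted p under 0.05. CA1 markers summed to 158.4 to 193.3 CPM in KO and 143.5 to 168.6 CPM in WT, with Dkk3 higher and Wfs1 lower, and had 4 positive and 3 negative changes, against 3 and 4 without KO M2 and WT F1. Blood genes had 5 of 5 negative changes, with a median of -0.45 and Hbb-bs and Hba-a2, both haemoglobin genes, lower at unadjusted p under 0.05. They summed to 32.54 to 39.19 CPM in KO and 35.06 to 54.38 CPM in WT. Meningeal fibroblast markers had a median of -0.14 and summed to 131.7 to 210.2 CPM in KO and 172.2 to 186.6 CPM in WT. Of them 2 were lower at unadjusted p under 0.05, and 5 without KO M2 and WT F1. Choroid plexus and ependyma markers had a median of 0.03, and of 0.41 without these libraries, and summed to 33.93 to 35.98 CPM in KO and 34.64 to 39.26 CPM in WT. The part of these tissues in the results above was not tested.

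Of 17 astrocyte genes Selenop (-0.26 ± 0.06) and the gap junction gene Gja1 (-0.12 ± 0.05) were lower and Gfap higher at unadjusted p under 0.05. In the oligodendrocyte lineage, 9 changes were positive and 5 negative, against 6 and 8 without KO M2 and WT F1, and 1 of 14 genes was lower at unadjusted p under 0.05, Pdgfra, the receptor of precursor cells, at 28.1, 27.5 and 31.7 CPM in KO and 36.6, 33.3 and 34.7 CPM in WT. Of 15 endothelial and mural genes Acta2, the smooth muscle actin gene, was higher (0.80 ± 0.37).

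**Figure D4:**
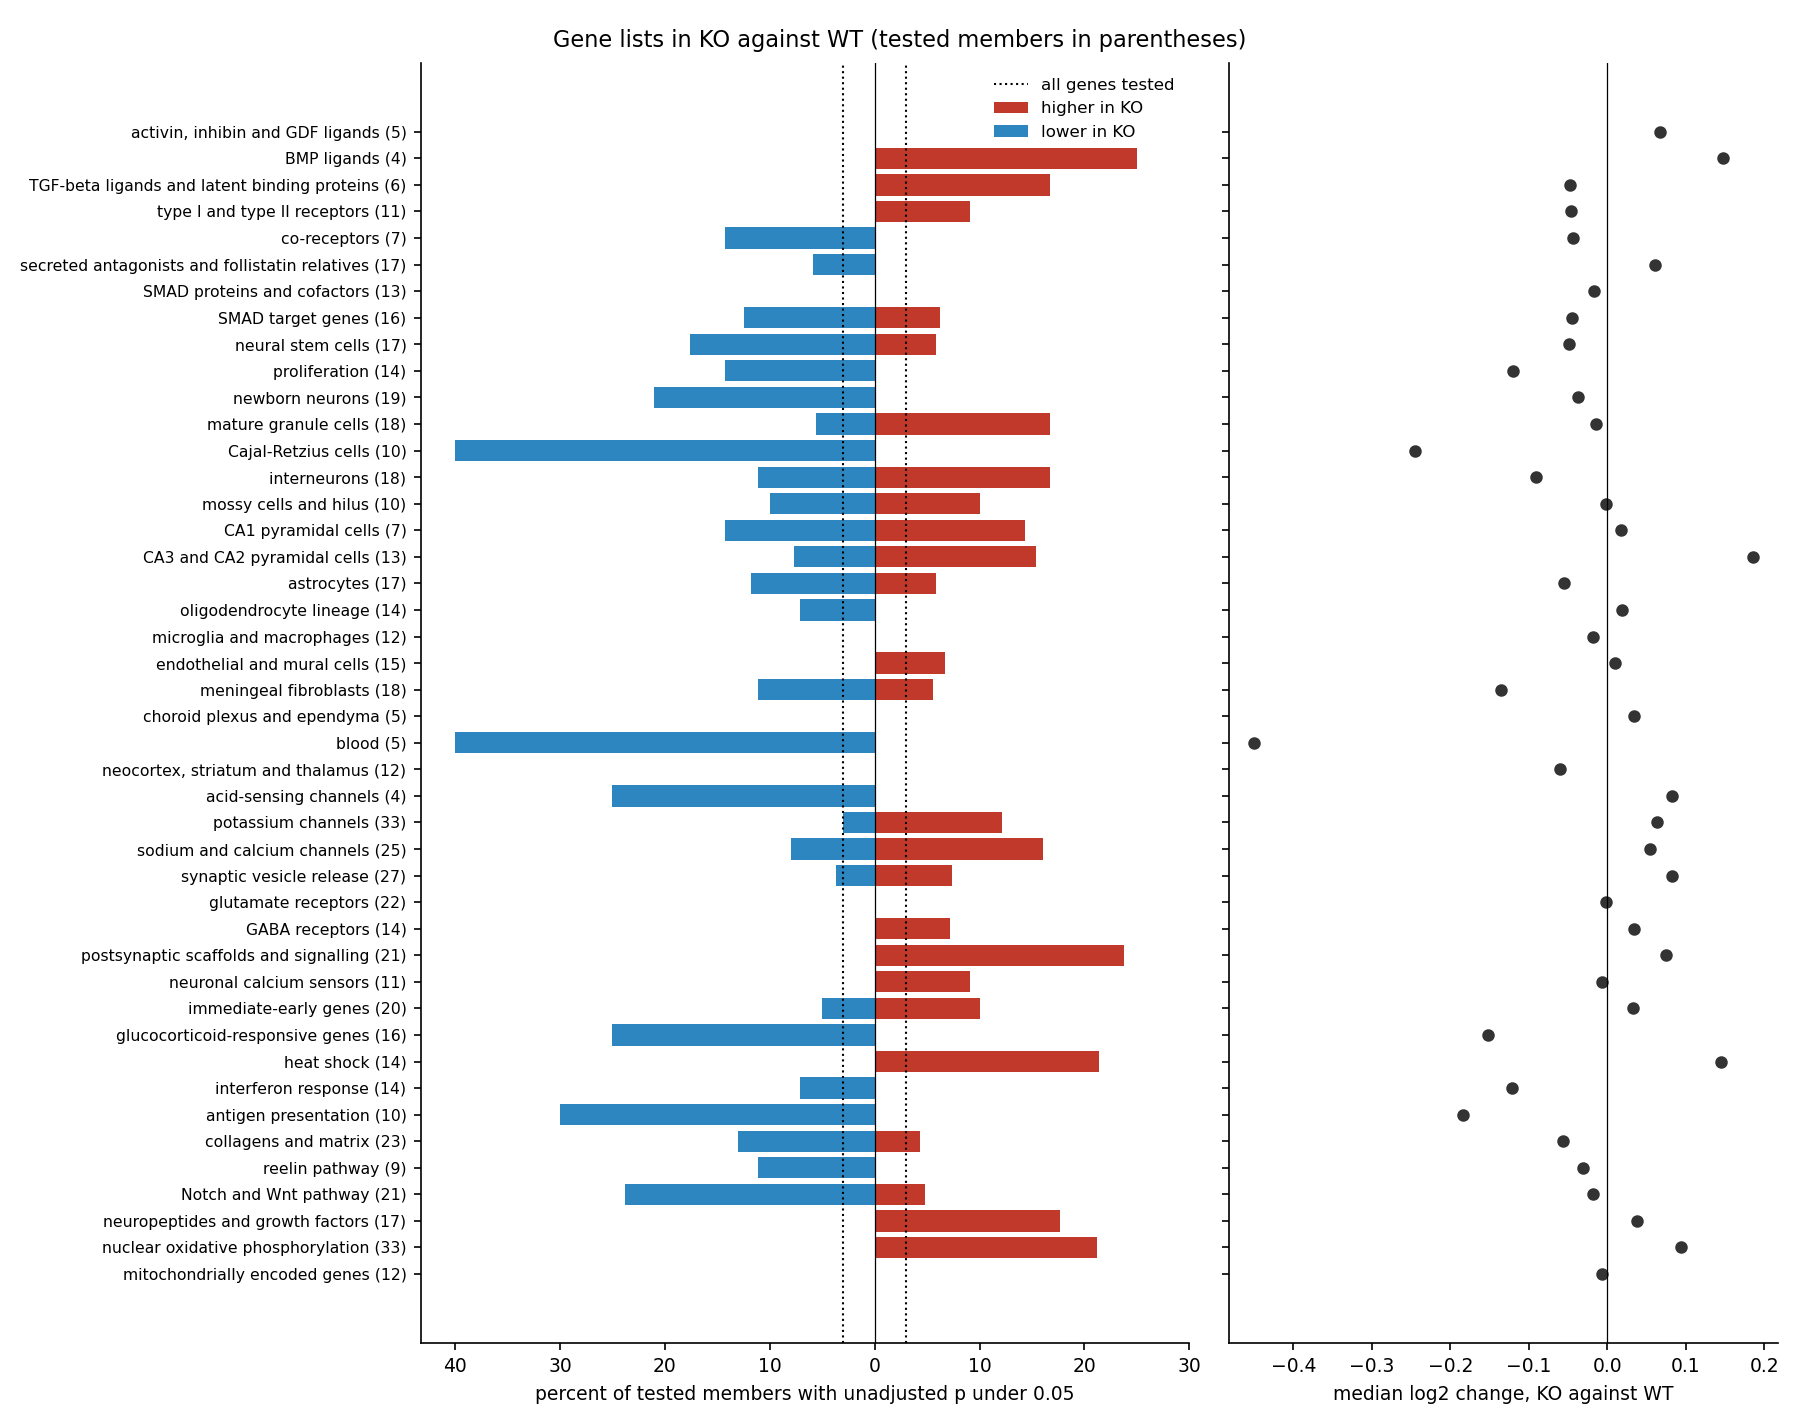
The left panel gives, for each gene list, the percent of tested members with unadjusted p under 0.05 that were higher (red) or lower (blue) in KO, with dotted lines at the shares of all tested genes, 2.95% higher and 3.01% lower. The right panel gives the median log2 change of each list, lowest for blood (-0.45) and Cajal-Retzius cells (-0.24).

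Of the genes close to Fst on chromosome 13 none passed the adjusted threshold. The nearest tested genes, Ndufs4 at 64.03 kb and Mocs2 at 359.3 kb, changed by -0.06 ± 0.08 and 0.04 ± 0.09. Of 28 genes tested within 5 Mb, 1 had unadjusted p under 0.05. It was Parp8, at 2396 kb, which stood at 22.6, 25.1 and 25.7 CPM in KO and at 18.7, 20.2 and 17.5 CPM in WT, a change of 0.40 ± 0.11 (adjusted p from edgeR 0.286). On all of chromosome 13, 24 of 557 tested genes (4.31%) had unadjusted p under 0.05, against 5.96% of all genes. At unadjusted p under 0.001 there were 5 of 557 (0.898%), Fst among them, against 0.322% of all genes.

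The comparison of Fst vector with GFP vector shares no library with that of KO and WT, and its table was deposited separately. Each has its own values for the genes named above. The share of mitochondrial rRNA was 0.596% in GFP vector M2, 0.587% in Fst vector M2 and 0.563% in Fst vector F. In the other vector libraries it was 0.00862 to 0.0115%. The part of this difference in the vector values was not tested. Among all genes tested in both, 52.4% had opposite signs. Among the 29 genes called with a term for sex, Fst left out, 18 had opposite signs (62.1%). At unadjusted p under 0.05 in the vector comparison, which 9.51% of its tested genes reached, 6 of the 29 had the opposite sign and 2 the same.

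Asic4, lower in KO by 0.89 on the log2 scale, changed by 2.40 ± 0.55 with the Fst vector. Hpca, higher in KO by 0.32, changed by -0.80 ± 0.27 there. Acvr1c and Cacna1g, both higher in KO, changed by -1.93 ± 0.68 and -2.77 ± 0.78. Pmepa1, which was not called in KO against WT with or without a term for sex, changed by -2.96 ± 0.70. The difference between the effects, tested below, did not pass the adjusted threshold for Acvr1c, Cacna1g or Pmepa1. Sox1 changed by 0.16 ± 0.21 with the vector. Col6a4, lower in KO, was lower with the vector as well (-1.76 ± 0.66).

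The difference between the effects was tested in 1 fit over all 12 libraries, where 44 genes (0.281%) passed after adjustment and 1556 (9.95%) had unadjusted p under 0.05. Of the 29 genes 1 passed, Cdhr1, and 11 had unadjusted p under 0.05. For Asic4 the difference was 3.29 (adjusted p from edgeR 0.076), for Rimbp2 -1.19 (0.065), for Sox1 1.18 (0.12) and for Hpca -1.13 (0.18), so these opposite values were not shown to differ at the adjusted threshold.

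**Figure D5:**
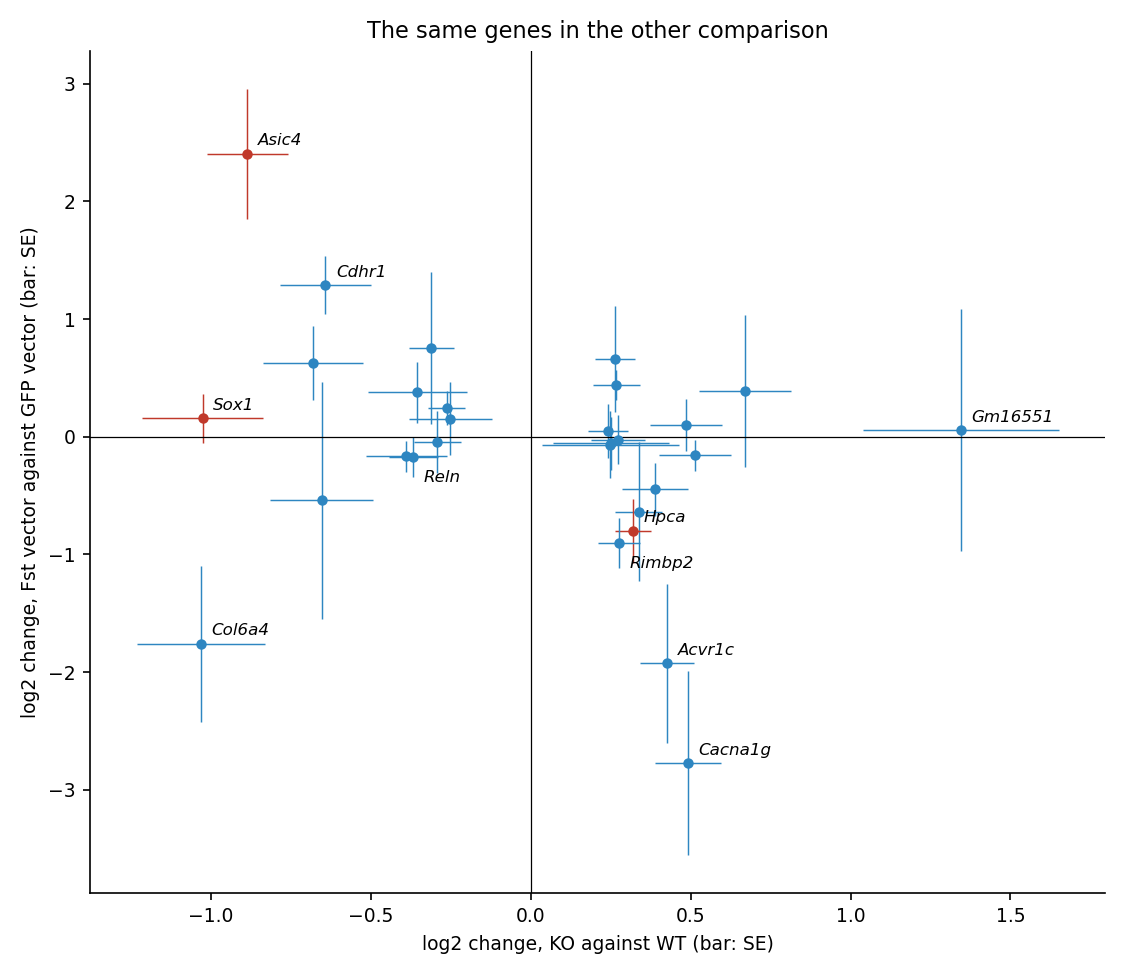
Log2 changes of the 29 genes called with a term for sex, Fst left out, in KO against WT (horizontal) and in Fst vector against GFP vector (vertical), with their SE. Red points passed without the term too. Asic4 and Cdhr1 lie at upper left, Acvr1c and Cacna1g at lower right, and Col6a4 at lower left.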

How the data were processed

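The authors deposited raw counts of reads per Ensembl gene, WT and KO in 1 table and the vector groups in a separate one, per the file headers. GRCm38 is the build named in the submitters' processing notes. Aligner, counting tool and strand handling are not given in the sources used. In the table of WT and KO, 6 lines that name no gene held 0 counts and were left out. GENCODE for GRCm38 supplied coordinates, symbols and exon lengths and matched 52489 of 52636 gene IDs.

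CPM were computed from the deposited counts and library totals. KO was compared with WT on their 6 libraries by the quasi-likelihood test of edgeR 4.0.16 in R 4.3.3. Scaling was by TMM, low genes were removed by filterByExpr at its defaults, dispersions were robust, and p-values were adjusted by Benjamini and Hochberg's method with a threshold of 0.05. SE were taken as the log2 change over the square root of F. Fits with sex by title, other scalings and filters, DESeq2 1.42.0, limma-voom (limma 3.58.1) and fewer libraries were alternatives. On simulated data the test was checked to recover set changes. Between replicates, chi-square over its degrees of freedom was 2.394 to 9.005, so no libraries agreed within sampling noise. Intervals and the floor of 3 counts cover counting error only.

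The members of the comparison and the 44 gene lists (694 genes, 5 symbols unmatched) were chosen with earlier results of these data known. They are described by counts and medians, with no test of a list. Named were the genes called with or without the term for sex, the 12 of smallest p and the 6 of largest change in each direction, 12 pathway genes and the 4 members of smallest p in each list. Not each of these 202 genes is described, and 23 more were named after their values were seen.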

Additional observations from a re-analysis of the deposited data

Results flagged for a closer look

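In 4 of the genes named here, the effect of KO against WT differed from that of Fst vector against GFP vector, tested as the difference of both log2 changes with edgeR's quasi-likelihood test over all 12 libraries. The differences are those of the vector comparison less KO against WT. For Fst the difference was 15.61 (adjusted p from edgeR 1.5e-11), and the vector carries this gene. The GFP vector libraries had 0, 1 and 0 Fst counts and the Fst vector libraries 2078, 1870 and 1497, so the fitted value depends on the prior count and is no measured fold. For Cdhr1 it was 1.93 ± 0.29 (adjusted p from edgeR 0.0087), with a change of -0.64 ± 0.14 in KO and 1.29 ± 0.24 with the vector. For Wnt7a, a ligand of the Wnt pathway, it was 2.10 ± 0.35 (adjusted p from edgeR 0.019), with -0.38 ± 0.16 in KO and 1.72 ± 0.28 with the vector. For Grm2, a presynaptic glutamate receptor of granule cells, it was -1.03 ± 0.17 (adjusted p from edgeR 0.017), with 0.11 ± 0.06 in KO and -0.92 ± 0.15 with the vector. Without a term for sex, KO against WT did not pass the adjusted threshold for Cdhr1, Wnt7a or Grm2; with the term Cdhr1 passed.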

How the results depend on the processing

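The 4 genes called in KO against WT became 46 with no filter on low counts, 30 with a term for sex, 20 without KO M2 and WT F1, 8 without both F1 libraries, 2 against a minimum change of 1.2 fold and 1 with a spread shared over 12 libraries. With terms for sex and rRNA share, added after seeing the data, 44 were called. Leaving out 1 library at a time gave 2 (without WT M2) to 17 (without WT F1), with 7 without KO M2. RLE size factors gave 4, library totals 6, a stricter filter 4, DESeq2 6 and limma-voom 3. All 46 genes called without the filter had also passed it. With the term for sex, leaving out 1 male library gave 3 to 50. With the replicate name as a block 23 were called. The correlation of deviations of same-named libraries was 0.093 for M1, 0.096 for F1 and -0.18 for M2. Between libraries of other names it ran from -0.292 to 0.278. No pairing by name was seen, but 3 libraries a group are too few for this check to decide it. The difference of effects called 44 genes, which became 210 with no filter, 246 with DESeq2, 289 with a replicate block and 80 with a term for sex, and 13 to 183 without 1 library. Of 4497 values of named genes under these alternatives, 4339 stayed on the same side of the threshold, 13 no longer passed, 145 newly passed and 0 reversed as calls. In 51 of them, in 24 genes, the sign was opposite with neither value past the threshold. At 3 libraries a group, depth limits genes near 3 counts, such as Mstn and Gdf6.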

Other observations

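Neuropeptide genes, which the report names only in part, had 12 positive and 5 negative changes in 17 tested, with a median of 0.04. At unadjusted p under 0.05, 3 were higher in KO and 0 lower. Npy stood at 24.8, 29.0 and 29.0 CPM in KO and at 24.2, 24.1 and 20.1 CPM in WT. Scg2, which encodes a granin that is cut into secretoneurin, changed by 0.14 ± 0.06. Penk, which encodes the enkephalin precursor, changed by 0.44 ± 0.18, with 14.0 to 20.7 CPM in KO and 9.002 to 14.6 CPM in WT. Npy did not overlap between the groups, while Scg2 and Penk did.

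Mossy cell and hilus markers were even, with 5 positive and 5 negative changes in 10 tested, against 6 and 4 without KO M2 and WT F1. Ociad2 (0.35 ± 0.14) was higher and Calcrl, a receptor of CGRP and adrenomedullin (-0.37 ± 0.18), lower at unadjusted p under 0.05. Markers of neocortex, striatum and thalamus had a median of -0.06, with 0 of 12 at unadjusted p under 0.05.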
